A study of Mus musculus with 4 samples.

Results

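The creatine kinase and adenylate kinase shuttle was followed through 9 genes, taken by symbol from a table of 46603 mouse genes. They are the creatine kinases Ckm, Ckmt2 and Ckb, the creatine synthesis enzymes Gatm and Gamt, the creatine transporter Slc6a8, and the adenylate kinases Ak1, Ak3 and Ak4. All 9 were present once and all 9 had a mean of at least 10 reads per library, as did 14301 genes in all. The RNA was ventricular, from mice of the C57Bl6/J strain between 8 and 12 weeks old. They were wild type (WT) or P2Y6-null (KO), the latter without a receptor for extracellular nucleotides. Mice of both genotypes were injected into the peritoneum daily for 7 days with saline or with isoproterenol, a beta-adrenergic agonist that provokes cardiac hypertrophy, at 50 mg/kg/day. Each of the 4 groups is 1 library, and the labels do not say how many hearts it holds or how the null allele was made. Where 4 values follow each other, they stand for saline-treated WT, isoproterenol-treated WT, saline-treated KO and isoproterenol-treated KO.

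Heart muscle turns over its ATP within seconds and keeps a reserve as phosphocreatine. Mitochondrial creatine kinase, encoded by Ckmt2, charges creatine with ATP made by oxidative phosphorylation, and cytosolic dimers of the muscle (Ckm) and brain (Ckb) subunits return the phosphate to ADP beside the myofibrils and ion pumps. Adenylate kinases join 2 ADP into ATP and AMP, or in the mitochondrial matrix use GTP, and the AMP formed is the signal read by AMP-activated protein kinase. Creatine itself is made mainly in kidney and liver by Gatm and Gamt and is taken up into the heart by Slc6a8. A shift from Ckm towards Ckb is a known feature of the fetal and of the overloaded heart.

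The libraries held 18771198 to 25637369 reads in the listed genes. Values are deposited CPM (a gene's reads scaled to the library's total), and every ratio between libraries is of reads scaled by TMM, a method that sets the bulk of genes to no change, with a 95% interval for counting error. With 1 library per group there is no replicate check: a ratio compares 2 libraries and not 2 conditions, and carries no p-value. A gene is called higher or lower when its whole interval lies beyond 1.5-fold. Scaling by total reads, which is the CPM as deposited, moves the log2 ratios of all genes by -0.08 in the WT pair, 0.18 in the KO pair and 0.21 between the treated libraries. P2ry6, which the genotype targets, stood at 5.11 and 5.89 CPM in the WT saline and isoproterenol libraries and at 0.566 and 0.533 CPM in the KO ones. The 8 cardiomyocyte markers summed to between 32613 and 33117 deposited CPM in every library, and none of them was at 0. On the TMM scale this sum was not level. Scaling to it moves the log2 ratios by -0.10 in the WT pair, 0.16 in the KO pair and 0.22 between the treated libraries. By TMM the sum was thus lower in the treated KO library than in KO saline or treated WT.

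The 250 bases before the start of each of the 3 creatine kinase genes are shown because these genes parted from one another in the treated libraries. Of the 3, Ckmt2 was called in no comparison. The sequences are from RefSeq (GRCm38.p6), written in the direction of transcription. They lie on the forward strand of chromosome 7 for Ckm (chr7:19410844-19411093), and on the reverse strand of chromosomes 13 for Ckmt2 (chr13:91876886-91877135) and 12 for Ckb (chr12:111672339-111672588). The RefSeq start used for Ckm lies inside the GENCODE bounds of the gene given below, which begin at 19404776. Those of Ckmt2 and Ckb lie at the edge of theirs. Capitals mark matches on either strand to the TATA box TATAAA, the E-boxes CAGCTG and, as a second form, CACCTG, the core of estrogen-related receptor sites AAGGTCA, or the GC box GGGCGG. No 2 of the marked matches overlap.
Ckm: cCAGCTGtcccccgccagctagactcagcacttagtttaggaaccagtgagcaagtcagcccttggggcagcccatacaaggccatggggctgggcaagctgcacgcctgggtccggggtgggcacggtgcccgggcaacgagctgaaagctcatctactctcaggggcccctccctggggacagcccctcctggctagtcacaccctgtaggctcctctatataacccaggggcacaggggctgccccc
Ckmt2: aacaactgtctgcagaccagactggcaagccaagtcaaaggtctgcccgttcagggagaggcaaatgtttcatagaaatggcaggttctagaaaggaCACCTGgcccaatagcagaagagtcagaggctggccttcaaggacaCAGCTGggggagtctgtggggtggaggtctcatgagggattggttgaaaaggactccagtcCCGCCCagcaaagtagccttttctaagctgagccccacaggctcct
Ckb: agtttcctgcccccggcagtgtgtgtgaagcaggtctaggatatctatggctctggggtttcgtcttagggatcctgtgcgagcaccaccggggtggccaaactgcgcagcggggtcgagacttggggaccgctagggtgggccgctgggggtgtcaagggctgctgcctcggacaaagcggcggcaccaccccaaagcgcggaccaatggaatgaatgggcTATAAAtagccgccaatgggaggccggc
The Ckb window held TATAAA starting 28 bases before the start site, a match found in 12.4% of 32851 mouse promoter windows of the same length, and none of the other motifs. The Ckm window held 1 CAGCTG (13% of windows) and no exact TATAAA. The similar string tatataa lies near its start site and is unmarked, since only exact matches were sought. The Ckmt2 window held 1 CAGCTG, 1 CACCTG (17.2%) and 1 GC box on the other strand (32.7%). AAGGTCA, present in 4.08% of windows, was in none of the 3. Promoters were listed for 8 of the 9 genes, and all of these matches are of letters only.

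Ckm, the muscle subunit (ENSMUSG00000030399, GRCm38 chromosome 7, 19404776 to 19422841), stood at 1235 CPM in WT saline, 1038 CPM in WT isoproterenol, 1103 CPM in KO saline and 745 CPM in KO isoproterenol. Both treated libraries were below the saline library of their genotype, and the treated KO library was the lowest. In the KO pair Ckm was 1.68-fold lower (1.65 to 1.72) and was called lower, as were 4.22% of all tested genes. In the WT pair it was 1.13-fold lower (1.11 to 1.15) and not called, among 0.797% of genes called lower. Between the treated libraries it was 1.61-fold lower in KO (1.58 to 1.65), where 1.80% of genes were called lower. By total reads these 3 ratios were 1.48-fold, 1.19-fold and 1.39-fold lower, so the direction held and neither call did. Against the summed cardiomyocyte markers the KO pair gave a log2 ratio of -0.58, also short of a call, whereas DESeq2 size factors kept both calls. Of the 8 cardiomyocyte markers 6 lay below 0 in the KO pair (median log2 ratio -0.30, or -0.12 by total reads). Tnni3, Myl3 and Myoz2 were called lower there by TMM, and Tnni3 and Myl3 between the treated libraries as well. In the WT pair 4 of the 8 lay below 0 (median -0.04) and 0 were called. The part of these shifts in the Ckm ratio was not tested. Of 6143 genes with a mean of at least 20 CPM, the one whose profile over the 4 libraries lay closest to that of Ckm was Tnni3, cardiac troponin I, itself a marker of heart muscle cells, at a root mean square distance of 0.0062 on the log2 scale. Irgm1 (0.0131) and Trip10 (0.027) followed, and 121 genes lay within 0.1, so that with 4 libraries many profiles look alike.

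Ckmt2, the mitochondrial isoform of striated muscle (ENSMUSG00000021622, chromosome 13, 91853387 to 91876885), behaved otherwise. It stood at 1726 CPM in WT saline, 2254 CPM in WT isoproterenol, 1720 CPM in KO saline and 1822 CPM in KO isoproterenol. The saline libraries were nearly level (1.03-fold, 1.02 to 1.05), and the treated WT library stood above the other 3. Ckmt2 was 1.38-fold higher (1.36 to 1.40) in the treated WT library, short of the threshold of 1.5-fold that 0.860% of genes passed upwards. In the KO pair it was 1.07-fold lower (1.06 to 1.09) by TMM and 1.06-fold higher by total reads, so no direction can be given there. Between the treated libraries it was 1.43-fold lower in KO (1.41 to 1.45), or 1.24-fold by total reads. The profile nearest to Ckmt2 was that of Rnf166 (distance 0.0282), followed by Ppargc1a (0.0322), which encodes the coactivator PGC-1alpha of mitochondrial genes, and Grb14 (0.0404), with 74 genes within 0.1. Ppargc1a stood at 105, 133, 107 and 107 CPM in the 4 libraries.

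Ckb, the brain-type subunit that also occurs in smooth muscle and many non-muscle cells (ENSMUSG00000001270, chromosome 12, 111669361 to 111672338), stood at 44.5 CPM in WT saline, 41.5 CPM in WT isoproterenol, 34.1 CPM in KO saline and 77.5 CPM in KO isoproterenol. The treated KO library was far above the other 3. In the KO pair Ckb was 2.0-fold higher (1.84 to 2.19) and was called higher, as were 7.09% of genes, while in the WT pair it was 1.01-fold lower (0.927 to 1.11). The difference of the 2 responses was 1.02 on the log2 scale (0.84 to 1.20), and its interval lay beyond 1.5-fold, as it did upwards for 3.83% of genes. Part of that difference comes from saline, where Ckb was 1.26-fold lower in KO (1.15 to 1.38). Between the treated libraries it was 1.61-fold higher in KO (1.48 to 1.76) and not called by TMM, where 4.20% of genes were called higher. By total reads it was 1.87-fold higher and called, but that scaling called more genes higher than TMM did. The closest profiles were those of Tgfb1i1 (distance 0.0158), Prelid1 (0.0328) and Dkk3 (0.0466), with 38 genes within 0.1.

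Fibroblast, macrophage, neural, atrial and skeletal muscle markers summed highest in the same library as Ckb. Smooth muscle, endothelial, adipocyte and red cell markers did not. The atrial sum in KO isoproterenol, 188 CPM, was close to the 183 CPM of WT saline. The marker calls below stand beside 7.09% of all tested genes called higher in the KO pair and 0.860% in the WT pair. The 7 fibroblast markers summed to 1183, 1819, 1018 and 5005 CPM, with 5 of 7 called higher in the KO pair and 3 of 7 in the WT pair. The collagen genes Col1a1 and Col1a2 gave 1634 and 1963 of the 5005 CPM, against 132 and 180 of the 1018 CPM in KO saline. By TMM, Pdgfra and Tcf21 were called in neither pair. The 8 macrophage markers summed to 277, 247, 240 and 540 CPM, with 5 of 8 called higher in the KO pair and 1 in the WT pair. The 4 neural and glial markers summed to 13.3, 14.3, 11.4 and 39.1 CPM, with 1 of 3 tested called higher in the KO pair, Uchl1, which alone gave 31.9 of the 39.1 CPM. The 5 smooth muscle markers summed to 569, 574, 463 and 532 CPM (2 called higher in the KO pair), and the 6 endothelial markers to between 862 and 951 CPM, with none called in either pair. The part of these cells in the Ckb reads was not tested. In whole ventricle, fewer cells of a type and less RNA per cell cannot be told apart. The 7 markers of skeletal muscle, a tissue rich in Ckm, summed to 2.57, 2.22, 2.57 and 7.88 CPM. Tnnt3 alone, called higher in the KO pair, gave 6.39 of the 7.88 CPM, and Myh1, Myh2 and Myh4 had 0 reads in at least 1 library.

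**Figure D1:**
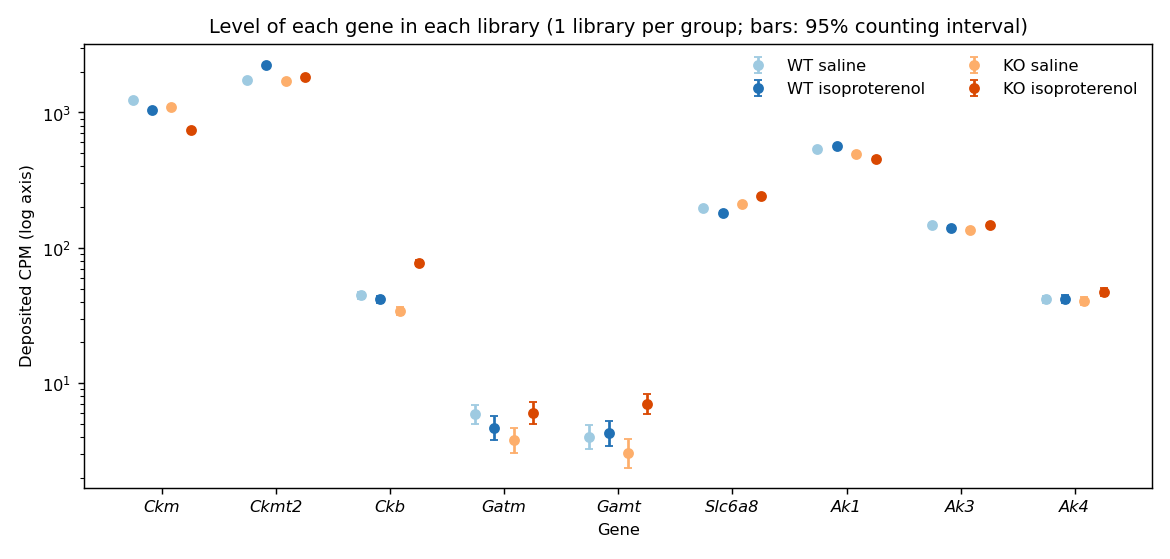
Deposited CPM (log axis) of the 9 genes in each of the 4 libraries, coloured by group, with bars for the 95% counting interval. Ckb at 77.5 CPM in the treated KO library and Ckm at 745 CPM in the same library stand apart from their other 3 points.

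**Figure D2:**
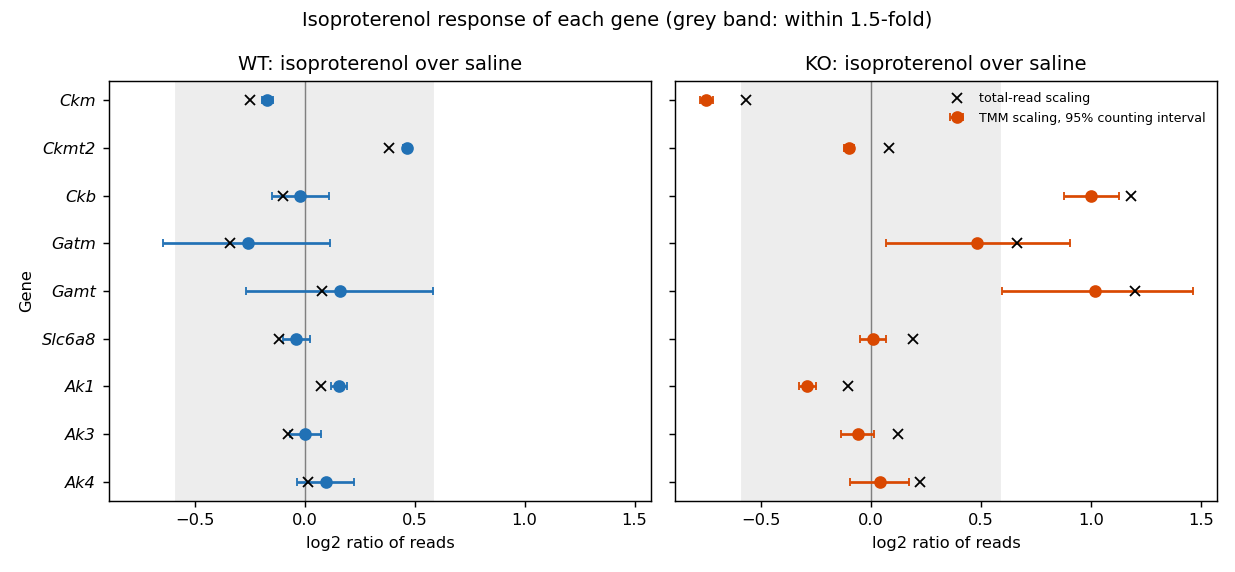
Log2 ratio of isoproterenol to saline reads for each of the 9 genes in WT (left) and KO (right), with circles and bars for TMM scaling and its 95% counting interval, crosses for scaling by total reads, and a grey band for ratios within 1.5-fold. In WT every circle lies inside the band; in KO the whole TMM interval of Ckm lies below it and those of Ckb and Gamt lie above it.

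The balance among creatine kinases needs no scaling between libraries, since each share is taken within a library. Of all creatine kinase reads, Ckmt2 took 57.4% in WT saline, 67.6% in WT isoproterenol, 60.2% in KO saline and 68.9% in KO isoproterenol. Ckm took 41.1%, 31.1%, 38.6% and 28.2% in the same order. The 2 treated libraries thus sat together and apart from the 2 saline libraries for both genes. The Wilson 95% intervals of the Ckm share, 40.7% to 41.4%, 30.8% to 31.5%, 38.2% to 39.0% and 27.8% to 28.6%, did not overlap. Ckb took 1.48% (1.40 to 1.57) of the reads in WT saline, 1.2% (1.17 to 1.33) in WT isoproterenol and 1.19% (1.11 to 1.28) in KO saline, but 2.93% (2.79 to 3.08) in KO isoproterenol. Ckmt1, the mitochondrial isoform of other tissues, had 4, 5, 3 and 20 reads in these libraries, at most 0.0403% of the creatine kinase reads.

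Counted as reads of one gene per read of the other, Ckmt2 to Ckm was 1.40 in WT saline and 2.17 in WT isoproterenol, a 1.55-fold higher ratio (1.52 to 1.59). It was 1.56 in KO saline and 2.45 in KO isoproterenol, a 1.57-fold higher ratio (1.53 to 1.61). These 2 pairs share no library, and their changes differed by 0.01 on the log2 scale (-0.03 to 0.06). Ckb to Ckm gave another picture. It was 0.036 in WT saline, 0.04 in WT isoproterenol, 0.0309 in KO saline and 0.104 in KO isoproterenol. The ratio was 1.11-fold higher (1.01 to 1.22) in the treated WT library and 3.37-fold higher (3.08 to 3.68) in the treated KO library, a difference of 1.60 on the log2 scale (1.42 to 1.78). The shift of the mitochondrial against the muscle isoform did not differ between the genotypes beyond counting error, and that of the brain against the muscle isoform was larger in the KO pair by more than counting error. These ratios were chosen after the values were seen.

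**Figure D3:**
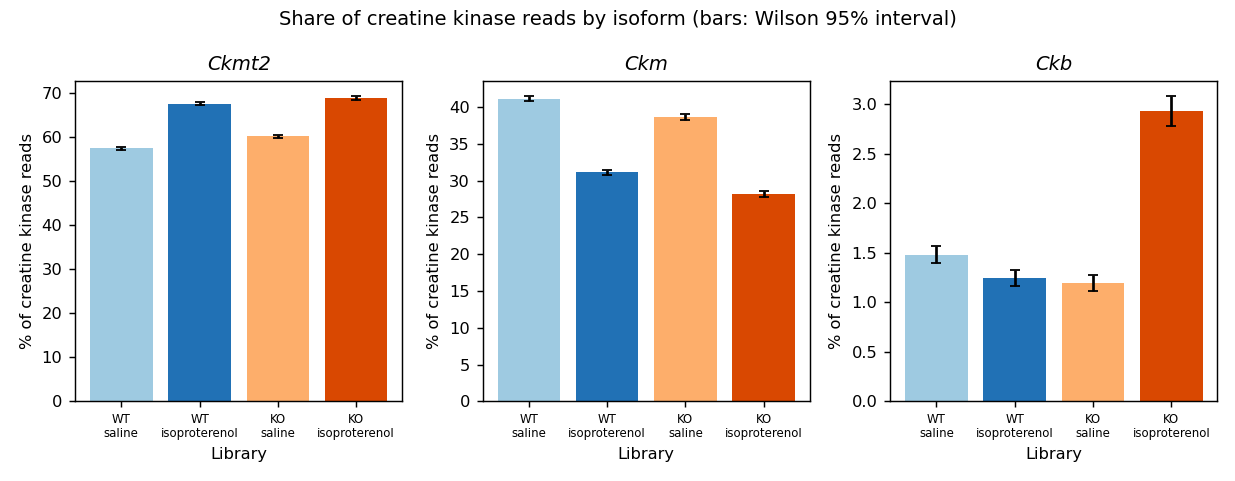
Share of all creatine kinase reads taken by Ckmt2, Ckm and Ckb (percent, each axis from 0) in each library, with bars for the Wilson 95% interval. The Ckmt2 share is 67.6% and 68.9% in the treated libraries against 57.4% and 60.2% in the saline ones, and the Ckb share of 2.93% in KO isoproterenol is above the 1.19% to 1.48% of the other libraries.

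All creatine kinase reads together came to 3006 CPM in WT saline, 3334 CPM in WT isoproterenol, 2858 CPM in KO saline and 2645 CPM in KO isoproterenol. The sum was 1.17-fold higher (1.16 to 1.18) in the treated WT library and 1.23-fold lower (1.21 to 1.24) in the treated KO library, or 1.11-fold higher and 1.08-fold lower by total reads. The sums of the 2 saline libraries differed by 1.02-fold (1.01 to 1.03), lower in KO.

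Levels of different genes were compared per kilobase of annotated exon, after TMM scaling. In the WT saline library Ckmt2 stood at 1162 per kilobase, Ckm at 424, Ak1 at 208, Ak3 at 47.4, Slc6a8 at 37.7, Ckb at 15.4, Ak4 at 8.95, Gamt at 2.78 and Gatm at 1.98. The order was the same in all 4 libraries. Neighbours whose counting intervals overlapped were Gamt and Gatm in WT saline and Ak3 and Slc6a8 in KO isoproterenol. With the length of the principal transcript in place of all exons, a choice made after seeing the data, Ckb stood at 30.2 and Slc6a8 at 59.3 per kilobase in WT saline. Slc6a8 then passed Ak3 in every library, and Ckb reached the level of Ak3 in KO isoproterenol, with overlapping intervals.

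Of the creatine supply genes, the transporter Slc6a8 (ENSMUSG00000019558, chromosome X, 73673150 to 73682502) carried nearly all the reads. It stood at 196 CPM in WT saline, 181 CPM in WT isoproterenol, 210 CPM in KO saline and 240 CPM in KO isoproterenol. By TMM the treated libraries did not differ from saline beyond counting error in WT (1.03-fold lower, 0.985 to 1.07) or in KO (1.01-fold higher, 0.967 to 1.05). By total reads Slc6a8 was 1.09-fold lower (1.04 to 1.13) in WT and 1.14-fold higher (1.10 to 1.19) in KO, and neither was called. By TMM it was slightly higher in KO than in WT, by 1.11-fold (1.06 to 1.15) in saline and 1.15-fold (1.10 to 1.20) in isoproterenol. By total reads these were 1.07-fold (1.03 to 1.11) and 1.33-fold (1.27 to 1.39), not called.

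Gamt, the methyltransferase of the last step of creatine synthesis (ENSMUSG00000020150, chromosome 10, 80258151 to 80261012), was scarce, at 4.02 CPM (103 reads) in WT saline, 4.25 CPM (88 reads) in WT isoproterenol, 3.05 CPM (70 reads) in KO saline and 7.03 CPM (132 reads) in KO isoproterenol. The treated KO library was the highest and the KO saline library the lowest. Gamt was called higher in the KO pair at 2.03-fold (1.51 to 2.76), with a lower bound just past the threshold, and did not differ beyond counting error in the WT pair (1.12-fold, 0.831 to 1.5). Gatm, which makes guanidinoacetate from arginine and glycine (ENSMUSG00000027199, chromosome 2, 122594467 to 122611303), had 152, 97, 87 and 113 reads, or 5.93, 4.68, 3.79 and 6.02 CPM. It was 1.40-fold higher (1.05 to 1.87) in the treated KO library and 1.51-fold lower (1.15 to 1.99) in KO than in WT under saline, and neither was called. At this depth a difference of 1.5-fold in Gatm or Gamt is at the limit of what the reads can show.

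Among the adenylate kinases Ak1, the cytosolic isoform of muscle (ENSMUSG00000026817, chromosome 2, 32621758 to 32635058), stood at 539 CPM in WT saline, 567 CPM in WT isoproterenol, 491 CPM in KO saline and 456 CPM in KO isoproterenol. It was 1.11-fold higher (1.09 to 1.14) in the treated WT library and 1.22-fold lower (1.19 to 1.26) in the treated KO library, or 1.05-fold higher and 1.08-fold lower by total reads. Between the treated libraries it was 1.44-fold lower in KO (1.40 to 1.48), or 1.24-fold by total reads, and no Ak1 ratio was called.

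Ak3, the GTP-using enzyme of the mitochondrial matrix (ENSMUSG00000024782, chromosome 19, 29020833 to 29047961), stood at 148 CPM in WT saline, 140 CPM in WT isoproterenol, 136 CPM in KO saline and 148 CPM in KO isoproterenol. Ak4, its relative in the matrix (ENSMUSG00000028527, chromosome 4, 101419277 to 101466995), stood at 41.5, 42.0, 40.4 and 47.1 CPM in the same order. By TMM their isoproterenol ratios lay between 1.04-fold lower and 1.07-fold higher, with intervals that included no change in both genotypes. The sign of each depended on the scaling except for Ak4 in the KO pair. By total reads Ak3 was 1.09-fold (1.03 to 1.15) and Ak4 1.17-fold (1.06 to 1.28) higher in the KO pair. In the WT pair Ak3 was then 1.06-fold lower (1.01 to 1.11) and Ak4 1.01-fold higher (0.923 to 1.11), and none was called. Relative to Ak1 within a library, Ak3 was 1.11-fold lower (1.05 to 1.17) in the treated WT library and 1.17-fold higher (1.11 to 1.24) in the treated KO library. Ak1 took 69.0% of all adenylate kinase reads in WT saline, 71.3% in WT isoproterenol, 68.8% in KO saline and 64.4% in KO isoproterenol. Together the 9 adenylate kinase genes came to 780, 796, 714 and 708 CPM in that order, a range narrower than that of the creatine kinases.

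Among further genes of these families, Ak6, a nuclear adenylate kinase, stood at 7.26, 6.66, 6.79 and 9.06 CPM and was not called in any comparison. Ak5, Ak7, Ak8 and Ak9 had at most 19 reads in any library. Ak5, with 7, 5, 0 and 19 reads, and Ckmt1 had most reads in the treated KO library.

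Over the 9 genes, isoproterenol gave 0 calls in the WT pair (median log2 ratio 0.002, against 0.00 over all tested genes, of which 1.66% were called) and 3 in the KO pair (median 0.01, against 0.00, with 11.3% called). Under saline 0 of 9 differed by genotype (median -0.08; 0.489% of genes called, 0.273% higher and 0.217% lower), and under isoproterenol 1 of 9 did (median -0.05; 6.0% called). The difference of the responses was called for 1 of 9, Ckb, against 5.57% of genes (1.73% downwards). The 9 genes did not move as a block: in the KO pair 5 had a ratio above 1 and 4 below. The comparisons by genotype use the same libraries as those by treatment and add no independent evidence.

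The test the design allows is an additive fit of genotype and treatment to all 4 libraries (limma on log2(CPM + 1), Benjamini-Hochberg over 14301 genes). It used the deposited CPM, without TMM scaling. After TMM scaling most of the genes it passed were lost, and none of the 9 genes kept an unadjusted limma p under 0.05. The 1 residual degree of freedom per gene in the fit is the difference of the responses between genotypes. A response that differs by genotype therefore counts as error, and the fit cannot show that such a gene lacks a response. limma also draws the error of each gene towards that of genes of similar level. The SE of Ckb for treatment, 0.23, was below the 0.28 of both Gamt and Gatm. It called 0 of the 9 genes by treatment, where 2.57% of all genes passed (1.69% higher and 0.881% lower), and 0 by genotype, where 0.0979% passed (0.0420% higher and 0.0559% lower). For treatment 2 of 9 had an unadjusted p under 0.05. They were Ckb at 0.53 on the log2 scale (SE 0.23, limma adjusted p = 0.299, higher in the KO pair and level in the WT pair) and Ckm at -0.41 (SE 0.19, limma adjusted p = 0.353, lower in both pairs). The quasi-likelihood test of edgeR on the recovered reads also called 0 of 9 for either effect, and 0 had an unadjusted p under 0.05.

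The lists around the shuttle are read against the share of all tested genes called, 1.66% for WT and 11.3% for the KO pair. With so few genes per list, these counts set no list apart from that share. Of 6 tested genes of mitochondrial ATP and ADP exchange, 0 were called in the WT pair (median log2 ratio 0.14) and 1 in the KO pair (median -0.21, or -0.03 by total reads). It was Slc25a4, the heart and muscle form of the ADP/ATP carrier, at 4718 CPM in WT saline, 4491 CPM in WT isoproterenol, 4593 CPM in KO saline and 3158 CPM in KO isoproterenol, 1.65-fold lower (1.63 to 1.67) in the treated KO library. By total reads it was 1.45-fold lower and not called. The other carrier form, Slc25a5, stood at 240, 290, 232 and 340 CPM and was 1.28-fold higher (1.23 to 1.32) in the WT pair and 1.29-fold higher (1.24 to 1.34) in the KO pair. The ratio of Slc25a5 to Slc25a4 was 1.27-fold higher (1.22 to 1.32) in the treated WT library and 2.13-fold higher (2.05 to 2.21) in the treated KO library, a difference of 0.75 on the log2 scale (0.67 to 0.82).

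Of 11 tested genes of AMP sensing and AMP deamination, 0 were called in the WT pair (median 0.09) and 2 in the KO pair (median 0.09), both regulatory beta subunits of AMP-activated protein kinase. Prkab2, the beta subunit abundant in muscle, stood at 78.3, 86.6, 82.3 and 198 CPM, 2.12-fold higher (2.01 to 2.25) in the KO pair. Prkab1 stood at 43.1, 32.4, 40.4 and 27.0 CPM, 1.69-fold lower (1.52 to 1.89) in the KO pair, or 1.49-fold by total reads and then not called. Prkag2, a gamma subunit, was called higher in the KO pair by total reads (1.69-fold, 1.52 to 1.89) but not by TMM. The ratio of Prkab2 to Prkab1 was 1.82, 2.67, 2.04 and 7.33 in these libraries, 1.47-fold higher (1.31 to 1.65) with isoproterenol in WT and 3.60-fold higher (3.19 to 4.06) in KO. The catalytic subunit Prkaa2 was, by CPM, the most abundant of the list in WT. By TMM it was 1.10-fold higher (1.05 to 1.15) in the WT pair and 1.12-fold lower (1.06 to 1.17) in the KO pair. By total reads it was 1.04-fold and 1.02-fold higher, within counting error. The pairs Slc25a5 with Slc25a4 and Prkab2 with Prkab1 were chosen after their values were seen.

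**Figure D4:**
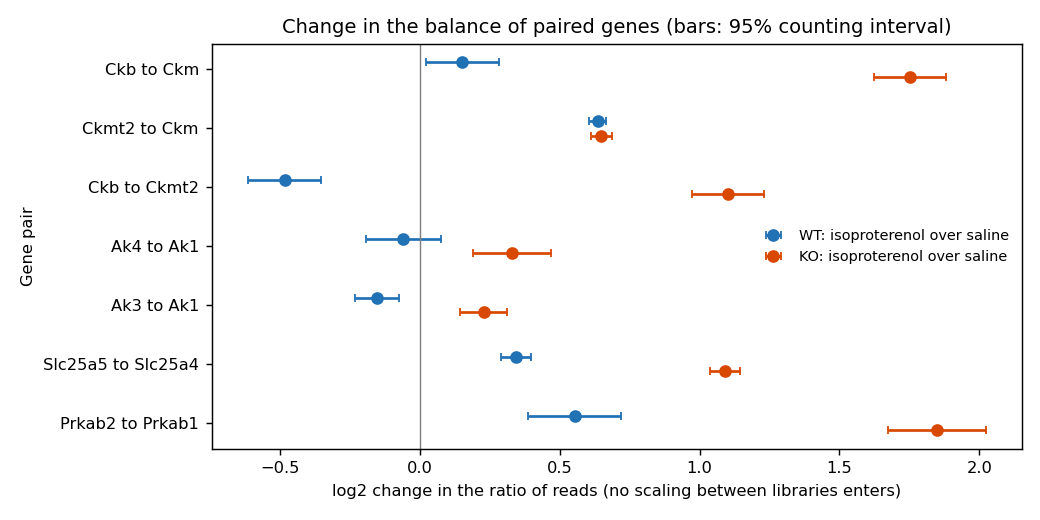
Log2 change, isoproterenol over saline, in the ratio of reads of 2 genes within a library, for 7 gene pairs in WT (blue) and KO (orange), with bars for the 95% counting interval. The 2 points of Ckmt2 to Ckm lie together at 0.64 and 0.65, while those of Ckb to Ckm lie apart at 0.15 and 1.75.

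Of 7 tested genes that supply arginine and methyl groups for creatine, 1 was called lower in the WT pair (0.797% of all genes were) and 2 higher and 2 lower in the KO pair (7.09% and 4.22% of all genes), with medians of 0.15 and 0.26. Slc7a1, a carrier of arginine, was lower in both, by 2.25-fold (2.05 to 2.47) in WT and 1.96-fold (1.78 to 2.17) in KO. The arginine carrier Slc7a2 was 3.04-fold higher (2.47 to 3.80) in the KO pair and Ass1, which makes the precursor of arginine, 3.05-fold higher (2.32 to 4.08). Mat2a, which makes the methyl donor used by Gamt, was 1.74-fold lower (1.58 to 1.91) in the KO pair, or 1.53-fold (1.40 to 1.68) and not called by total reads, and Mat2b, the most abundant gene of the list, was not called. Of 9 tested nucleotide kinases none was called in any comparison (medians -0.03 in the WT and -0.04 in the KO pair), the most abundant being Guk1 at 45.7 to 57.6 CPM. Of 11 transcriptional regulators of energy genes, 0 were called in the WT pair (median -0.03) and 1 in the KO pair (median -0.24, or -0.06 by total reads), with 10 of 11 below 1 there by TMM. It was the nuclear receptor Esrrb, 1.81-fold lower (1.60 to 2.04), or 1.59-fold (1.41 to 1.79) and not called by total reads. The most abundant by CPM, Mef2a and Mef2d, were 1.18-fold (1.13 to 1.24) and 1.42-fold (1.36 to 1.49) lower in the KO pair and were not called.

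**Figure D5:**
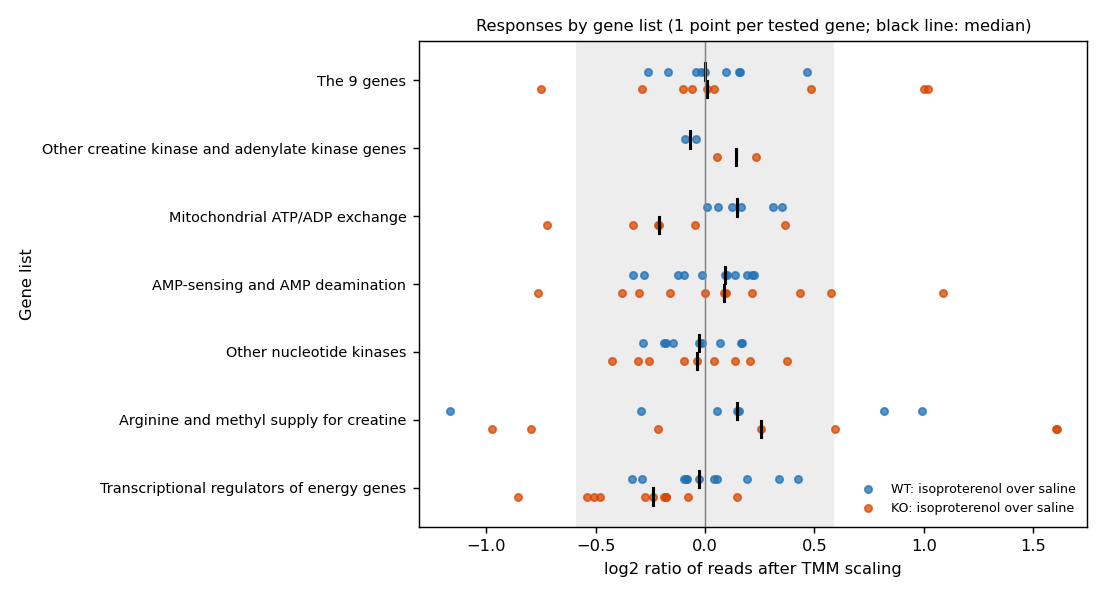
Log2 ratio of isoproterenol to saline reads after TMM scaling for every tested gene of the 9-gene set and of the 6 lists around it, in WT (blue) and KO (orange), with a black line for the median and a grey band for ratios within 1.5-fold. In WT the one gene with its whole interval beyond 1.5-fold is Slc7a1, while in KO 3 of the 9 genes and some genes of 4 of the 6 lists have one. The WT points of Slc7a2 and Ass1 lie outside the band with intervals that reach into it.

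Reads of some of these genes could be shared with others. A processed copy on which Ckb matches over 1149 bases at 96.8% identity (Gm12892) had at most 4 reads in any library, and Ak3l2-ps, which matches Ak4 over 672 bases at 99.6%, had 4 reads in WT isoproterenol and 0 elsewhere. Ckm, Ckmt2 and Ak3 overlap genes on the opposite strand. Of these Cdc37l1, beside Ak3, stood at 67.9 to 74.1 CPM, and the others had at most 71 reads. The kit keeps strand per the labels, and how strand was set in counting is not given in the sources used here.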

How the data were processed

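The authors deposited 1 table of CPM for 46603 Ensembl genes. The submitters' processing notes name HTSeq, GRCm38.p4 and mm10; aligner, annotation release and settings were not given in the sources used here. Per the labels' protocols, the mRNA kit keeps strand. Columns named by genotype alone were taken as saline, since the others name the treatment. Every deposited CPM value above 0 was a whole multiple of the smallest in its column within 0.01 reads (100% of values), which gave back whole reads.

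Reads were scaled by TMM (edgeR 4.0.16) over the 14301 genes whose mean reached 10 reads. Ratios have 0.5 added to each count and exact conditional (Clopper-Pearson) 95% intervals. Changes of a pair's ratio and differences of responses have normal intervals from their counts. Reads are not independent molecules, so intervals cover counting error only. The additive fit used limma 3.58.1 with trend on log2(CPM + 1), threshold 0.05 after Benjamini-Hochberg. The fit and the intervals were tried on simulated data. For the fit, these had the same spread for all genes and no response that differed by genotype. They therefore do not show how well the fit works on these libraries. The edgeR fit on recovered reads and DESeq2 1.42.0 size factors were alternatives. The additive fit's p-values measure only the spread between these 4 libraries.

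Lengths and positions are from GENCODE M21 (GRCm38), which may differ from the authors' release. The 9 genes and all lists were chosen with earlier results of these data known. All 9 are named in each comparison; of the lists, called genes (at most 6 per list) and the most abundant gene; and the 3 nearest profiles of Ckm, Ckmt2 and Ckb, by root mean square distance of centred log2 levels. Other genes named were chosen after their values were seen. Of the lists, 1 gene is not reported here.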

Additional observations from a re-analysis of the deposited data

Results flagged for a closer look

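Of the 9 genes, 3 had counting intervals on opposite sides of no change in the 2 genotypes or under the 2 treatments, with 1 library per group, and the difference was not tested against replicate error. Ckmt2 was 1.38-fold higher with isoproterenol in WT and 1.07-fold lower in KO, a log2 difference of -0.56, and it was likewise 1.03-fold higher in KO than in WT under saline and 1.43-fold lower under isoproterenol, the same -0.56. Scaling by total reads gave the KO pair the other sign (1.06-fold higher), so for Ckmt2 the opposite directions depend on the scaling, while the difference stayed at -0.30. Ak1 was 1.11-fold higher with isoproterenol in WT and 1.22-fold lower in KO, a log2 difference of -0.44, or -0.18 by total reads. Ckb was 1.26-fold lower in KO than in WT under saline and 1.61-fold higher under isoproterenol, a log2 difference of 1.02, or 1.28 by total reads.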

How the results depend on the processing

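No paired analysis was possible because each group has 1 library, and for the same reason no library could be left out of a comparison. Over the 9 genes 5 ratios were called, and none of these changed sign: of their 40 alternative values 28 kept the call and 12 lost it. Of 320 alternative values of the 40 ratios not called, 14 gained a call. Signs without a call changed with the scaling for Ckmt2, Ak3 and Ak4 and, in the additive fit, for Slc6a8, Ak3 and Ak4. The Ckm calls depend on the scaling: DESeq2 size factors kept both, and total reads without mitochondrial genes kept that in the KO pair, but with total reads or scaling to the cardiomyocyte markers 0 of the 9 were called lower in the KO pair, and 0 lower and 1 higher (Ckb) in KO under isoproterenol, the latter also with total reads without mitochondrial genes. Over all genes, total reads gave 357 lower (against 604) in the KO pair, 1044 higher (600) and 112 lower (258) between the treated libraries, and 1062 higher (548) and 85 lower (248) for the difference of responses; the cardiomyocyte markers gave 370, 1056, 112, 1060 and 85, and leaving out mitochondrial genes gave 155 lower for the difference. With a looser threshold (0.32 on the log2 scale), 344 genes were higher (123) and 315 lower (114) for WT, 1730 (1014) and 1355 for KO, 81 (39) and 105 (31) by genotype under saline, 1172 and 841 under isoproterenol, and 1063 and 793 for the difference; of the 9 genes 1 was then higher in the WT pair, 1 higher and 3 lower in KO under isoproterenol, and 3 lower in the difference. With 2-fold these counts were 49 and 35, 515 and 186, 16 and 15, 222 and 61, and 218 and 47, with 0 of the 9 called in any comparison. By differences in log2(CPM + 1) past 1.5-fold they were 188 higher and 304 lower in the WT pair, 2314 higher in the KO pair, 95 lower under saline, 1888 higher under isoproterenol and 2519 higher for the difference. That scale put 0 of the 9 lower in the KO pair, 2 higher and 0 lower in KO under isoproterenol, and 3 higher in the difference. In the additive fit the genes passing for treatment, 368, became 135 with 5 added to CPM, 965 with no filter, 1 after TMM scaling (2011 at an unadjusted p under 0.05) and 22 with edgeR. For genotype, 14 became 22 with 0.5 added, 7 with 5 added, 195 with no filter, 0 after TMM scaling (limma; 412 at an unadjusted p under 0.05) and 3 with edgeR. The causes of these shifts were not tested. Gatm and Gamt, with 70 to 152 reads per library, are limited by depth.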

Other observations

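The marker lists of other cells, given once, showed the following. The 4 atrial markers summed to 183 CPM in the saline and 141 CPM in the isoproterenol library of WT, and to 113 and 188 CPM in those of KO. Of these, Myl4 and Bmp10 were called higher in the KO pair, lower in KO under saline, and higher in the difference of responses. Bmp10 was also called higher in the WT pair, and it had 35, 74, 1 and 149 reads. Of all tested genes, 7.09% were called higher in the KO pair and 0.860% in the WT pair. The shares called lower in KO under saline and higher in the difference were 0.217% and 3.83%. The 4 adipocyte markers summed to 12.9, 13.4, 6.62 and 8.04 CPM and the 4 red cell genes to 93.0, 107, 77.9 and 81.6 CPM in the same order. The part of any of these cells in the ratios of the 9 genes was not tested. P2ry6 was 8.43-fold lower in KO than in WT under saline (4.93 to 16.8) and 12.2-fold lower under isoproterenol (6.73 to 27.4).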
